A study of Mus musculus with 216 samples.

Results

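Kidneys of old male mice (27 months) were compared with kidneys of young male mice (6 months) across all genes. The members were 24 of the 216 libraries of the series: every library labelled kidney and old (12) or kidney and young (12), 1 of each age per circadian time from 18 to 62 h in steps of 4 h. All mice were males of the C57B6/J-NIA strain, and each library pooled 2 samples. The 12 kidney libraries of aged mice (18 months) were used to place an intermediate age. The young and old libraries of adrenal gland, heart, hypothalamus, lung and skeletal muscle (120 in all) served to test whether a change from young to old had a higher or lower value in kidney. No label ties a pool to named mice, so the p-values measure the spread between these pools once circadian time is fitted as a block, a spread that may be technical in part.

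The kidney filters blood in the glomerulus, whose podocytes hold back protein, and the tubule then reclaims most of the filtrate. The proximal tubule takes back glucose, phosphate, amino acids and protein, the thick ascending limb takes back salt and secretes uromodulin, and the distal tubule and collecting duct set the final balance of salt, calcium, acid and water. In male mice the proximal tubule also carries a set of transcripts that depend on testosterone. Ageing mouse kidneys are known to gather lymphocytes, in part in clusters that are organised by the chemokine CXCL13.

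Total counts ran from 21.2 to 24.8 M (mega, the SI prefix) in young libraries, from 19.5 to 23.3 M in aged ones and from 5.20 to 19.97 M in old ones, with old totals under 7 M at circadian times 30, 34 and 42. Shallow libraries and old age cannot be told apart for rare transcripts. Levels are given as CPM, each count scaled to its library's total in M, and log2 changes come from a fit with its own scaling factors, against which plain CPM ratios lay higher by a median of 0.14 on the log2 scale. The label of the tissue held in every library: Slc34a1, the phosphate transporter of the proximal tubule, was never below 3721 CPM in young or old kidney, Umod never below 2149.5, Aqp2 never below 143 and Nphs1 never below 24.1. Some libraries stood apart. The young library at circadian time 30 held 248 CPM of the injury gene Lcn2, against at most 1.995 in the other young libraries, and the old library at circadian time 38 held 146 CPM of Havcr1 with the lowest mitochondrial share. At circadian time 46 the old library held the highest old summed levels of the B cell list and of the T and natural killer cell list described below. Many results that rest on the young library are given with and without circadian time 30. Those of Havcr1, Lcn2 and Krt20 are also given without 30 and 38.

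Between young and old kidney, edgeR called 10362 of 16521 genes tested (62.7%), 5400 higher in old (32.7%) and 4962 lower in old (30%), at an adjusted p under 0.05. A change of over 1.5-fold was called for 1742 genes (10.5%), of which 1183 were higher (7.16%) and 559 lower (3.38%) in old. The levels of the 12 old libraries all lay above those of the 12 young libraries for 1001 genes (6.06%) and all below for 569 (3.44%), 1570 in all (9.5%). Without circadian time 30 these counts were 2128 (12.9%) and 708 (4.29%). The median log2 change over all genes was 0.02. The log2 change moved with base composition: across genes, which are not independent replicates, its Spearman rho was 0.35 with GC content and -0.29 with transcript length. For aged minus young these were 0.01 and -0.06. With that trend removed, an alternative chosen after the data were seen, 3800 genes were higher and 6027 lower. Each list below was read against these shares, since a count near 32.7% higher or 30% lower is what all genes gave.

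The 18-month libraries lay between the other ages for many of the genes below. In 1 fit over the 3 ages, aged against young gave 3890 of 17184 genes (22.6%), 2182 higher (12.7%) and 1708 lower (9.94%). Old against aged gave 8930 (52%), 4444 higher (25.9%) and 4486 lower (26.1%). Both comparisons use the same aged libraries, so their values are only set side by side.

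**Figure D1:**
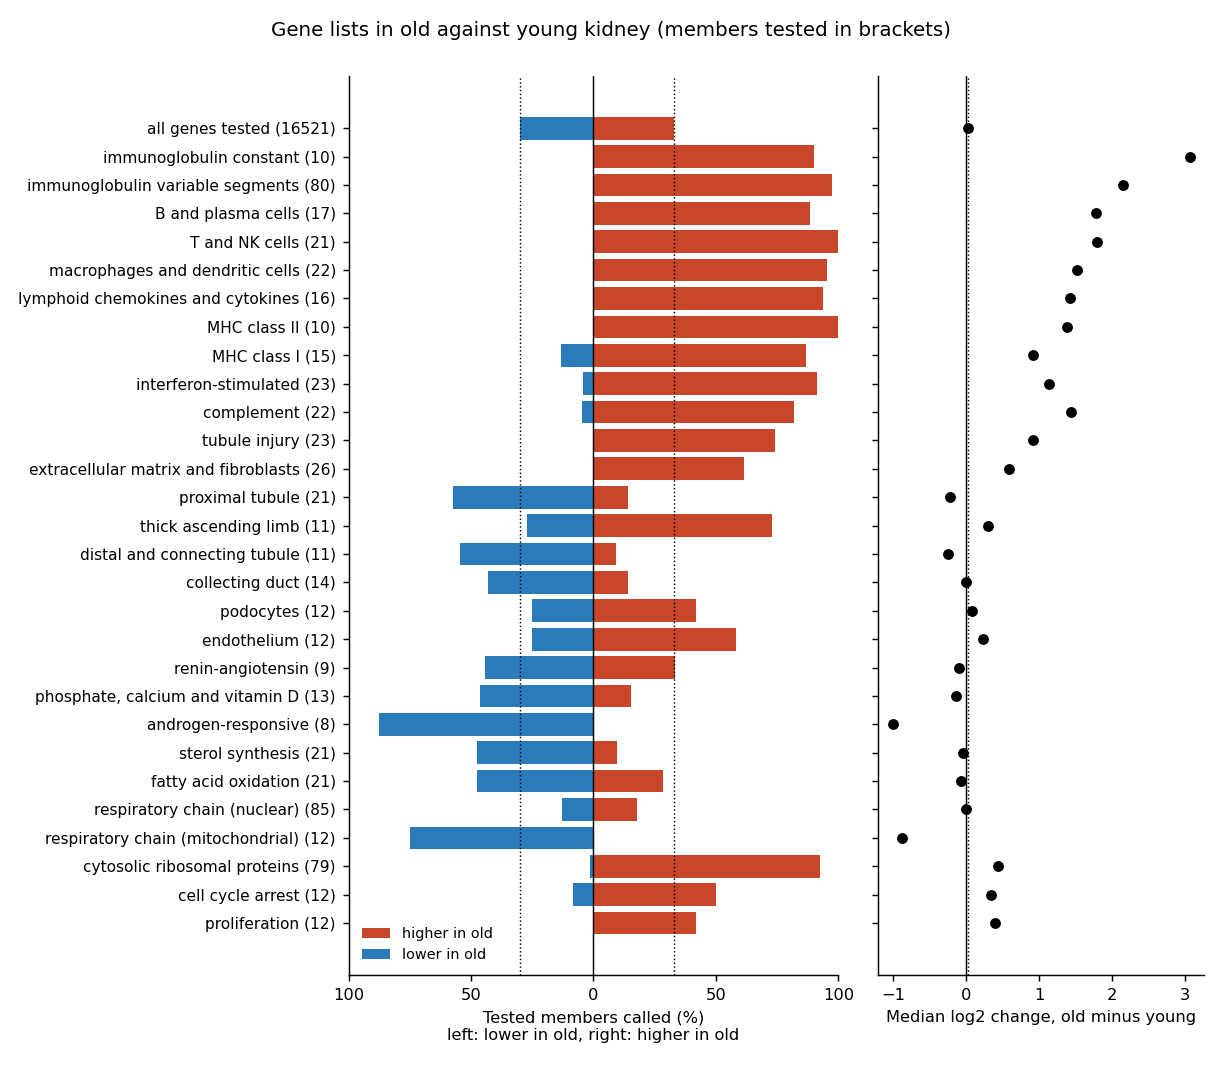
Left, share of each list's tested members called higher (red, to the right) or lower (blue, to the left) in old than in young kidney, in percent, with the number tested in brackets. Dotted lines mark the shares over all genes, 32.7% and 30%. Right, median log2 change of the tested members. Immunoglobulin, lymphocyte, macrophage and MHC lists sit far to the right, and the androgen-responsive and mitochondrially encoded lists to the left.

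Of all the lists, the immunoglobulin constant genes had the highest median. Of 10 tested (12 in the list), 9 were higher in old kidney and 0 lower, with a median log2 change of 3.06 against 0.02 over all genes. Ighm (chr12:113418558-113422730, GRCm38, minus strand), the constant region of the IgM heavy chain, had 6.02, 15.3 and 30.8 CPM as lowest, median and highest value in young kidney and 248, 561 and 1104 CPM in old kidney. No old library reached down to the young range, and the aged libraries, at 131, 222 and 672 CPM, already lay above it. The log2 change from young to old was 5.11 (SE 0.34) (edgeR, adjusted p = 9.16e-08, higher at 12 of 12 times). In the fit over 3 ages it was 4.08 from young to aged and 1.10 from aged to old. Igkc (chr6:70726435-70726966, plus strand), the constant region of the kappa light chain, went from 36.6, 56.7 and 88.9 CPM to 160.5, 303 and 485 CPM, again without overlap and higher at 12 of 12 times, a log2 change of 2.25 (SE 0.23) (edgeR, adjusted p = 2.36e-06). In bulk tissue, more cells of a type and more RNA per cell cannot be told apart.

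The heavy chain classes did not move alike. Ighg2b, an IgG class made after switching, had 0.518, 2.303 and 35.3 CPM in young and 48.8, 114 and 184 CPM in old kidney, a log2 change of 4.77 (SE 0.56). Ighg1 was near absent in most young libraries, with a lowest, median and highest of 0.0942, 0.526 and 74.3 CPM, but the highest young library overlapped the old ones at 8.46, 33.3 and 86.1 CPM. Its log2 change was 4.62 (SE 0.79), and it did not pass with circadian times 18 to 38 alone. Igha, the IgA heavy chain that marks mucosal plasma cells, had 85.5, 140.5 and 241 CPM in young, 27.2, 78.2 and 148 CPM in aged and 81.7, 212 and 481 CPM in old kidney. The groups overlapped and the change from young to old, 0.51 (SE 0.26), did not pass (edgeR, adjusted p = 0.103), while aged kidney lay below young by a log2 change of -1.06. Of 380 variable segments of the heavy and light chains 80 had enough counts to be tested, and 78 of them were higher and 0 lower, with a median log2 change of 2.14. The segment Igkv6-20 showed 0, 0.111 and 0.212 CPM in young and 0.661, 5.602 and 17.9 CPM in old kidney, a log2 change of 5.84 (SE 0.25), and Igkv3-2 one of 5.27 (SE 0.42). Variable segments resemble each other in sequence, so counts of a single segment are uncertain. After thinning all libraries to the lowest total, 13 of these segments remained in the test, all 13 of them higher.

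Transcripts that define B cells and plasma cells rose along with these. Of 17 tested (20 in the list), 15 were higher and 0 lower (median log2 change 1.78), and 3 had no overlap between the groups, or 6 without circadian time 30. Cd79a, a signalling chain of the B cell receptor, went from 0.792, 1.03 and 1.58 CPM to 1.303, 4.23 and 34.4 CPM. The highest value came from the old library at circadian time 46, where the summed level of the B cell list reached 403 CPM against an old median of 147 and a young range of 46.2 to 90.8 CPM. The fitted change of Cd79a was 1.89 (SE 0.34) (edgeR, adjusted p = 1.97e-04), that of its partner Cd79b 1.86 (SE 0.27) and that of the B cell kinase Blk 2.39 (SE 0.32). Jchain, which joins IgM and IgA into polymers in plasma cells, rose less, from 25.7, 40.1 and 71.3 CPM to 38.8, 97.3 and 135 CPM with overlapping groups, a log2 change of 0.93 (SE 0.25). It did not pass with circadian times 18 to 38 alone.

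All 21 tested T cell and natural killer cell transcripts (24 in the list) were higher in old kidney, with a median log2 change of 1.80, and 6 of them did not overlap between the groups (15 without circadian time 30). Cd3d, a chain of the T cell receptor complex, had 0.215, 0.359 and 1.34 CPM in young and 0.661, 1.69 and 5.16 CPM in old kidney, a log2 change of 1.88 (SE 0.25). Cd8b1, a coreceptor chain of cytotoxic T cells, had 0.136, 0.328 and 0.834 CPM and 1.32, 2.24 and 3.29 CPM. All old values of Cd8b1 lay above all young ones, and the change was 2.51 (SE 0.22) (edgeR, adjusted p = 6.34e-08). Ccl5, a chemokine made by activated T and natural killer cells, rose from 0.848, 1.09 and 4.17 CPM to 4.91, 7.61 and 29.8 CPM, also without overlap, a change of 2.65 (SE 0.24). The chemokine receptor Cxcr3 of activated T cells rose by 1.98 (SE 0.17). The highest old values of Cd3d, Ccl5 and Cxcr3 came from the library at circadian time 46, that of Cd8b1 from the one at 22. In the library at 46 the summed level of the list was 193 CPM, against an old median of 61.6. At equal depth 6 members could be tested and 6 were higher.

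Macrophage and dendritic cell transcripts showed the same direction in 21 of 22 tested members, with 0 lower and a median log2 change of 1.52. Only 1 member was free of overlap over all 12 times, and 18 were once circadian time 30 was left out. Their summed level ran from 190 to 926 CPM in young kidney, with the highest value at circadian time 30 and a median of 235, and from 442 to 1036 CPM in old kidney with a median of 633. Lyz2, the lysozyme of myeloid cells, shows the pattern: 12.2, 21.3 and 223 CPM in young and 86.95, 139.7 and 260.0 CPM in old kidney, where the young value at circadian time 30 lay inside the old range and the other young values reached at most 27.8. Its change was 2.50 (SE 0.33) with all times and 2.74 (SE 0.09) without circadian time 30. Cd68, a lysosomal protein of macrophages, rose by 1.32 (SE 0.20), from 2.26, 3.68 and 13.8 CPM to 7.08, 8.85 and 22.6 CPM. Xcr1, the chemokine receptor of cross-presenting dendritic cells, did not overlap, at 0.697, 0.857 and 1.67 CPM against 1.93, 2.95 and 5.85 CPM, a change of 1.59 (SE 0.14). Flt3, the receptor that dendritic cell precursors need, rose by 1.68 (SE 0.20), Ms4a7 of tissue macrophages by 1.93 (SE 0.22) and Ly6c2 of circulating monocytes by 2.45 (SE 0.22).

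**Figure D2:**
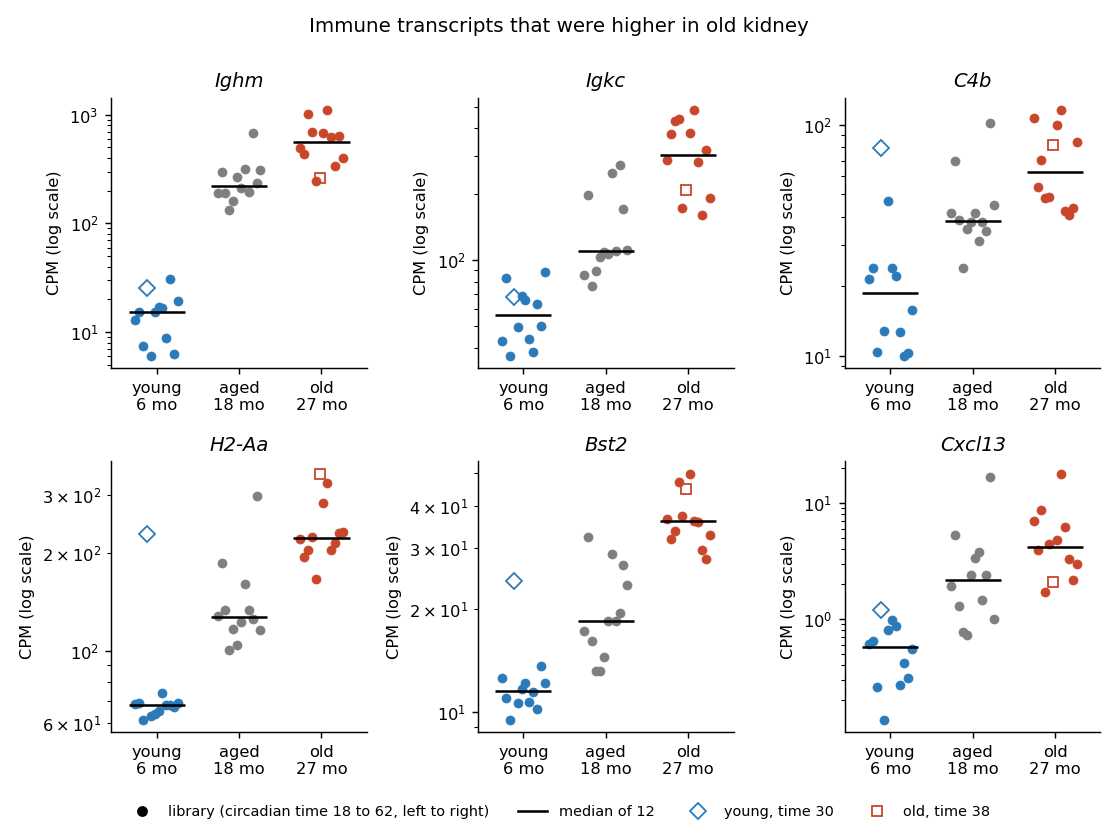
CPM on a log axis in each kidney library, young (blue), aged (grey) and old (red), 12 libraries a group in order of circadian time from left to right. Bars are medians. Ighm, Igkc, Bst2 and Cxcl13 separate young from old libraries completely, and H2-Aa does so except for the young library at circadian time 30 (open diamond). C4b overlaps.

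Lymphoid chemokines and cytokines followed. Of 16 tested (20 in the list), 15 were higher and 0 lower (median 1.41), with 2 free of overlap over all times and 12 without circadian time 30. Cxcl13, which draws B cells into follicles, went from 0.136, 0.581 and 1.21 CPM to 1.72, 4.22 and 17.9 CPM with every old library above every young one, a log2 change of 2.91 (SE 0.34) (edgeR, adjusted p = 2.77e-06). The aged libraries spread from 0.729 to 16.7 CPM. Cxcl12, made by stromal cells and a ligand of CXCR4, was far from rare, at 117, 156 and 223 CPM in young and 256, 321 and 403 CPM in old kidney, again with no overlap. Its change of 0.86 (SE 0.08) was small beside that of Cxcl13 but called at over 1.5-fold. Tnfsf13b, the B cell survival factor BAFF, rose by 1.52 (SE 0.15), and Ltb, the lymphotoxin chain that shapes lymphoid tissue, by 1.94 (SE 0.25). Ccl28, a chemokine of epithelia that binds CCR10 on plasma cells, went the other way, and is described with the largest falls.

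Antigen presentation rose on both arms. All 10 tested MHC class II genes, which present peptides to helper T cells, were higher, with a median log2 change of 1.38. Over all times 2 were free of overlap, and all 10 were without circadian time 30. H2-Aa had 61.3, 68.05 and 228 CPM in young kidney, where the highest value was that of circadian time 30 and the others reached at most 73.9, and 165, 222 and 349 CPM in old kidney, a change of 1.52 (SE 0.15) (edgeR, adjusted p = 1.28e-06). H2-Ab1, its partner chain, rose by 1.39 (SE 0.14), and H2-Oa, which regulates peptide loading in B cells, rose by 1.95 (SE 0.21) from 0.174, 0.5004 and 0.649 CPM to 0.849, 1.52 and 8.43 CPM. Of 15 tested genes of the MHC class I pathway, which shows peptides to cytotoxic T cells, 13 were higher and 2 lower, with a median of 0.92. H2-K1 had 219, 243 and 466 CPM and 423, 512 and 657 CPM, a change of 0.89 (SE 0.07) with overlap only at circadian time 30. H2-Q7, a class I gene with close copies whose reads may be shared, rose by 1.23 (SE 0.09). The lower pair was Tapbp (tapasin, -0.28 (SE 0.07)) and Erap1 (a peptide-trimming protease, -0.20 (SE 0.06)), and Erap1 turned to 0.09 with the GC and length trend removed.

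Interferon-stimulated genes, which cells switch on in response to interferon, were higher in 21 of 23 tested and lower in 1 (median 1.13). They were free of overlap in 4 members, or in 15 without circadian time 30. Bst2, or tetherin, which holds budding virus particles at the cell surface, had 9.46, 11.5 and 24.01 CPM in young, 13.1, 18.4 and 32.3 CPM in aged and 27.96, 35.98 and 49.6 CPM in old kidney, with no old library inside the young range. Its change was 1.46 (SE 0.08) (edgeR, adjusted p = 3.69e-10). Mx1, an antiviral GTPase, rose by 2.05 (SE 0.13) from 0.664, 1.33 and 2.503 CPM to 3.02, 5.81 and 7.82 CPM. Irf7, the factor that amplifies type I interferon, rose by 1.82 (SE 0.11), Zbp1, a sensor of left-handed nucleic acid, by 2.10 (SE 0.18), and Isg15, a ubiquitin-like modifier, by 1.27 (SE 0.11). The member that was lower was Rsad2 (viperin), at -0.23 (SE 0.08), a call that was lost without circadian time 22 or 46.

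Since these lists moved together, the promoters of 4 members are shown, as RefSeq sequence of 250 bases before the start site on GRCm38.p6, read 5′ to 3′ in the direction of the gene. Capitals in H2-Aa (chr17:34287824-34288073, minus strand) and H2-Oa (chr17:34092129-34092378, plus strand) mark the Y box CTGATTGG, an element of MHC promoters. Capitals in Bst2 (chr8:71537473-71537722, minus strand) and Isg15 (chr4:156200819-156201068, minus strand) mark matches to the interferon-stimulated response element in the form GAAANNGAAA (N is any base), which overlap each other in both.
H2-Aa: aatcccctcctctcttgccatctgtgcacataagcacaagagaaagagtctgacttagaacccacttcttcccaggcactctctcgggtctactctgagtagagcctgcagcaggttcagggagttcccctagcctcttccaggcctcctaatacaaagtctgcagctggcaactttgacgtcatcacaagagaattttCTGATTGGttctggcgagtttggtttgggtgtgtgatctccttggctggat
H2-Oa: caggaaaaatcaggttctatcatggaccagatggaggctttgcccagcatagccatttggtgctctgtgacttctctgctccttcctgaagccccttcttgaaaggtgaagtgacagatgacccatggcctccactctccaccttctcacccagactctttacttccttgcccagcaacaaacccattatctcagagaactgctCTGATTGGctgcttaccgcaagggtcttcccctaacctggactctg
Bst2: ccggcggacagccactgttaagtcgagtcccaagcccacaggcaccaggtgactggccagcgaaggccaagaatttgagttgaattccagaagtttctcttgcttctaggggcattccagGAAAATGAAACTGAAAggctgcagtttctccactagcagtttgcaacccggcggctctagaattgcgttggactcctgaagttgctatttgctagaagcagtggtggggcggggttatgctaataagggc
Isg15: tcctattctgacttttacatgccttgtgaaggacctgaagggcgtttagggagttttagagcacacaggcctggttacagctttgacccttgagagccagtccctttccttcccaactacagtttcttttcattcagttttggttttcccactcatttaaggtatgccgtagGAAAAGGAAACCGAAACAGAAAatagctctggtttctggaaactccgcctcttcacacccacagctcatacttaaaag
Both strands were searched. The Y box stood in a promoter of 3 of 7 matched MHC class II genes (H2-Aa, H2-Eb1 and H2-Oa), 6 of 13 of MHC class I and 0 of 17 interferon-stimulated ones. It stood in 3.83% of 32851 promoters of that length, which belong to 27025 genes. The list counts are of genes and that share is of promoters, so the units differ. The response element stood in a promoter of 10 of 17 matched interferon-stimulated genes, 2 of 13 of MHC class I and 0 of 7 of MHC class II, and in 2.98% of all promoters. A match is a description of letters in this window.

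Complement, a cascade of plasma proteins that tags and lyses targets and is also made within the kidney, was higher in 18 of 22 tested members and lower in 1 (Cd55, a decay accelerating factor, -0.48 (SE 0.08)), with a median of 1.43. No member was free of overlap over all times, and 10 were without circadian time 30. C4b (chr17:34728380-34743882, minus strand), a component of the classical and lectin pathways, went from 9.94, 18.6 and 79.5 CPM to 40.8, 62.3 and 116 CPM. Young and old overlapped through the young libraries at circadian times 30 and 38. The change was 1.63 (SE 0.27) (edgeR, adjusted p = 1.77e-04, higher at 11 of 12 times) and 1.83 (SE 0.17) without circadian time 30, and it did not pass with circadian times 18 to 38 alone. C3, the hub of the cascade, had 8.77, 29.4 and 745 CPM and 75.4, 163 and 459.8 CPM, and its change of 2.31 (SE 0.50) was 2.60 (SE 0.25) without circadian time 30. Without the block it was 0.94 and not called (edgeR, adjusted p = 0.229), nor was it called with a cosine of time or with circadian times 18 to 38. C8a, a component of the membrane attack complex that was not in the list, went the other way, from 32.6, 47.4 and 53.1 CPM to 21.03, 25.9 and 36.04 CPM, a change of -0.90 (SE 0.08) (edgeR, adjusted p = 1.03e-07, lower at 12 of 12 times). Serping1, the C1 inhibitor, rose by 1.42 (SE 0.14) from 30.9, 51.1 and 140.5 CPM to 100.4, 153 and 185 CPM. C1ra and Masp1, proteases of the classical and lectin pathways, rose by 1.20 (SE 0.12) and 1.52 (SE 0.14).

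Tubule injury genes were higher in 17 of 23 tested and lower in 0 (median 0.92), and in 21 of 23 when circadian time 30 was left out. Havcr1, or KIM-1, which damaged proximal tubule cells display, had 0.726, 1.02 and 106 CPM in young and 9.95, 15.1 and 146 CPM in old kidney. Apart from the young library at circadian time 30, young values reached at most 1.39, and apart from the old library at circadian time 38, old values reached at most 18.5. The change was 3.43 (SE 0.72) (edgeR, adjusted p = 0.001296). It was 4.01 (SE 0.35) without circadian time 30 and 3.62 (SE 0.12) without 30 and 38. It did not pass without the block of circadian time, with a cosine of time or with circadian times 18 to 38. Lcn2, a siderophore-binding protein of injured tubule and neutrophils, showed 0.947, 1.67 and 248 CPM against 11.3, 18.3 and 56.2 CPM. Its change of 3.24 (SE 0.70) became 3.76 (SE 0.19) without circadian time 30 and 3.63 (SE 0.17) without 30 and 38. Without the block it was 0.13 and not called (edgeR, adjusted p = 0.914), nor was it called with a cosine of time or with circadian times 18 to 38. Krt20, an umbrella cell keratin found in injured proximal tubule, changed by 1.64 (SE 0.54). Its change was 2.14 (SE 0.33) without circadian time 30 and 1.75 (SE 0.25) without 30 and 38. It did not pass in 5 settings (no filter, no block, a cosine of time, circadian times 18 to 38, and without 18, 22 and 38), where its change was 1.19 to 1.61. Other members had lower peaks in the same young library. Anxa2, a membrane-binding annexin, rose from 37.3, 53.4 and 88.1 CPM to 92.98, 107 and 158 CPM with no overlap, a change of 0.89 (SE 0.08), S100a6 by 1.12 (SE 0.12) and the intermediate filament Vim by 0.92 (SE 0.10).

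**Figure D3:**
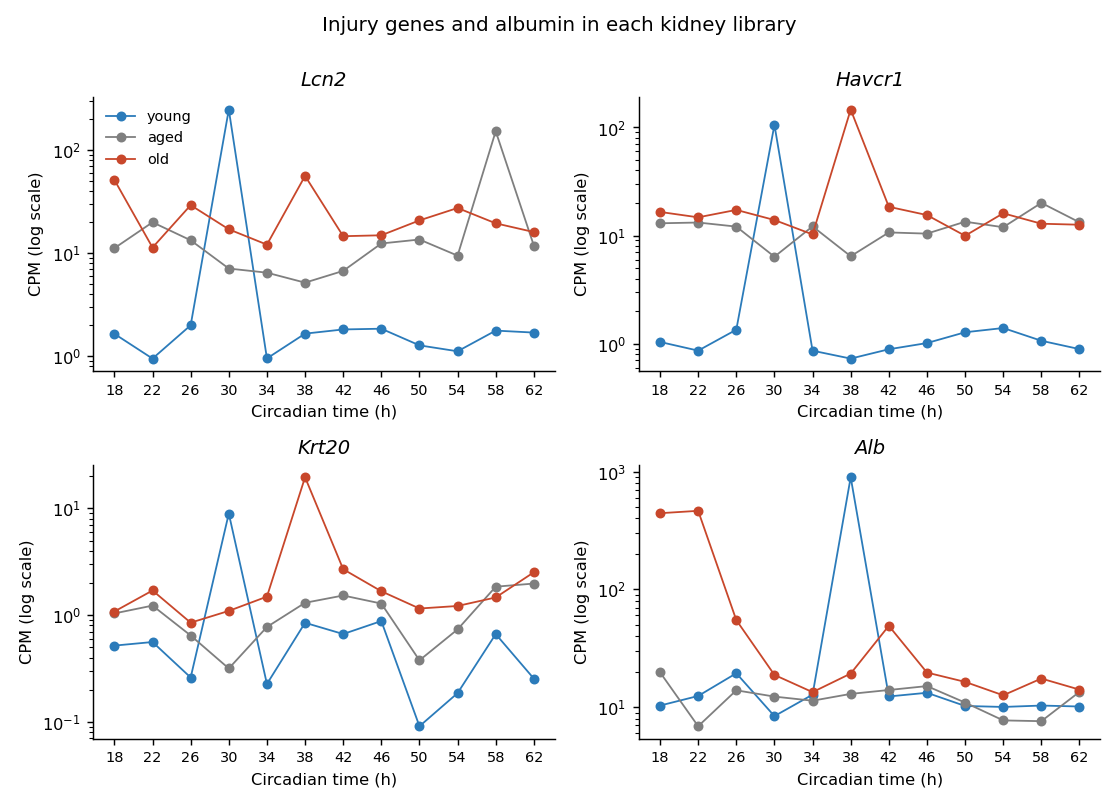
CPM on a log axis against circadian time for 3 injury genes and albumin, 1 line per age, 1 library per point. Lcn2, Havcr1 and Krt20 peak in the young library at circadian time 30, Havcr1 and Krt20 also in the old library at 38. Alb is high in the young library at 38 and the old ones at 18 and 22.

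Extracellular matrix and fibroblast genes were higher in 16 of 26 tested and lower in 0 (median 0.58), or in 23 of 26 without circadian time 30. Col1a1, a chain of the main fibrillar collagen of scar tissue, had 10.3, 16.1 and 117 CPM in young and 17.3, 28.4 and 70.8 CPM in old kidney, and its change of 0.58 (SE 0.26) did not pass (edgeR, adjusted p = 0.0654). Without circadian time 30 it was 0.79 (SE 0.14) and passed (edgeR, adjusted p = 1.57e-04). Acta2, the smooth muscle actin of vessel walls and myofibroblasts, did not depend on that library, with 17.8, 22.8 and 33.1 CPM against 40.2, 53.8 and 68.01 CPM, no overlap and a change of 1.01 (SE 0.09). Pdgfra, a receptor on fibroblasts, rose by 0.70 (SE 0.08), and Col6a1, a beaded filament collagen, by 1.02 (SE 0.16), which did not pass with circadian times 18 to 38 alone.

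Part of these rises was present at 18 months. Between young and aged kidney, 12 of the B cell genes, 17 of the T and natural killer cell genes, 17 of the macrophage and dendritic cell genes, 9 of the MHC class II genes, 17 of the interferon-stimulated genes and 11 of the matrix genes were called higher and 0 of each lower, against 12.7% and 9.94% of all genes. Of the immunoglobulin constant genes 6 were higher and 1 lower in that step, and of the complement genes 13 and 1. Between aged and old kidney the counts called higher in the first 6 lists were 8, 18, 13, 7, 16 and 5, against 25.9% of all genes, with 1 interferon-stimulated and 1 matrix gene lower, so that the matrix share lay below that of all genes. The aged library at circadian time 58 stood apart in the same way as the young one at 30, with 153 CPM of Lcn2 and 260.4 CPM of Lyz2 as the highest aged values.

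The nephron's own transcripts changed by smaller amounts and in both directions. Of 21 tested proximal tubule genes, 12 were lower and 3 higher (median -0.23), and without circadian time 30 they were 16 and 3. Slc34a1 had 4026, 4663 and 4914 CPM in young and 3721, 4508 and 5514 CPM in old kidney, and its change of -0.14 (SE 0.07) did not pass (edgeR, adjusted p = 0.114). Slc4a4, the cotransporter that returns bicarbonate to blood, dropped from 1310.4, 1460.0 and 1649 CPM to 664, 822 and 974 CPM without overlap, a change of -0.96 (SE 0.05) (edgeR, adjusted p = 2.77e-10). Cyp7b1, an oxysterol hydroxylase, also separated the groups, at 194, 254 and 302 CPM against 85.9, 112 and 156 CPM, a change of -1.27 (SE 0.08). Lrp2, or megalin, which takes up filtered protein, fell by 0.55 (SE 0.06), and Pck1, the gluconeogenic carboxykinase, by 0.53 (SE 0.07). The 3 that were higher were the water channel Aqp1 (0.34 (SE 0.06)), the inositol oxygenase Miox (0.40 (SE 0.07)) and the organic anion transporter Slc22a8 (0.17 (SE 0.05)), and none of the 3 passed as higher with the GC and length trend removed.

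Outside that list, 2 organic anion transporters named for their large falls were lower. Slco1a1 (chr6:141907282-141946962, minus strand), on the apical membrane, had 490.1, 848 and 951 CPM in young, 209.7, 340.2 and 493 CPM in aged and 52.9, 137 and 286 CPM in old kidney. The lowest young value, that of circadian time 30, still lay above the highest old one, and the change was -2.70 (SE 0.22) (edgeR, adjusted p = 3.22e-07, lower at 12 of 12 times). Slc22a7, the other transporter, went from 142, 215 and 284 CPM to 30.4, 64.1 and 110.5 CPM, again with no overlap, a change of -2.05 (SE 0.19). The step from young to aged was -1.31 for Slco1a1 and -1.06 for Slc22a7, and the step from aged to old -1.33 and -0.98.

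The thick ascending limb stood on the other side. Of 11 tested genes, 8 were higher and 3 lower (median 0.30). Umod, uromodulin, was among the most abundant transcripts and rose from 2149.5, 2447 and 2991 CPM to 3765, 4069 and 4918 CPM, every old library above every young one, a change of 0.64 (SE 0.05) (edgeR, adjusted p = 9.09e-09). Ppp1r1a, a phosphatase inhibitor of that segment, rose by 0.53 (SE 0.06). The 3 lower members were the growth factor Egf (-0.28 (SE 0.07)), the salt cotransporter Slc12a1 (-0.20 (SE 0.07)) and the claudin Cldn10 (-0.11 (SE 0.05)), and leaving out 1 circadian time could end the call of Slc12a1 (18, 22, 42 or 46) and Cldn10 (22, 26, 42, 46 or 58).

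Further along, the distal and connecting tubule had 6 of 11 members lower and 1 higher (median -0.25). The higher one was Slc12a3, the thiazide-sensitive salt cotransporter, at 1044, 1297 and 1404 CPM against 1511, 1934 and 2285 CPM, a change of 0.45 (SE 0.06) with no overlap. Kl (chr5:150952607-150993817, plus strand), klotho, the coreceptor through which FGF23 lowers phosphate, was lower: 905, 1028 and 1109 CPM in young, 710.4, 932 and 994 CPM in aged and 542, 595 and 747 CPM in old kidney. The old libraries all lay below the young ones, by -0.89 (SE 0.05) (edgeR, adjusted p = 5.71e-10), and most of the step fell after 18 months (-0.23 from young to aged, -0.67 from aged to old). Slc8a1, the sodium-calcium exchanger, fell by 0.92 (SE 0.12) and Calb1, the calcium-binding calbindin, by 0.71 (SE 0.12), both with overlapping groups. In the collecting duct 6 of 14 members were lower and 2 higher (median close to 0). Aqp2, the water channel that vasopressin moves to the membrane, changed by 0.28 (SE 0.07), a call that was lost with the GC and length trend removed, while Slc26a4, pendrin of the intercalated cells, fell by 0.67 (SE 0.07) from 81.5, 92.1 and 108 CPM to 47.9, 63.7 and 88.3 CPM.

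Podocyte genes were 5 of 12 higher and 3 lower (median 0.08), not far from the 32.7% and 30% of all genes. Nphs1, nephrin of the slit diaphragm, rose by 0.42 (SE 0.06), and Thsd7a, a podocyte surface antigen, fell by 0.59 (SE 0.07). Endothelial genes were 7 of 12 higher and 3 lower (median 0.22). Egfl7, secreted by endothelium, rose by 0.67 (SE 0.05), Kdr, the main VEGF receptor, fell by 0.34 (SE 0.05), and Pecam1 changed by 0.26 (SE 0.05), which was lost with the GC and length trend removed.

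**Figure D4:**
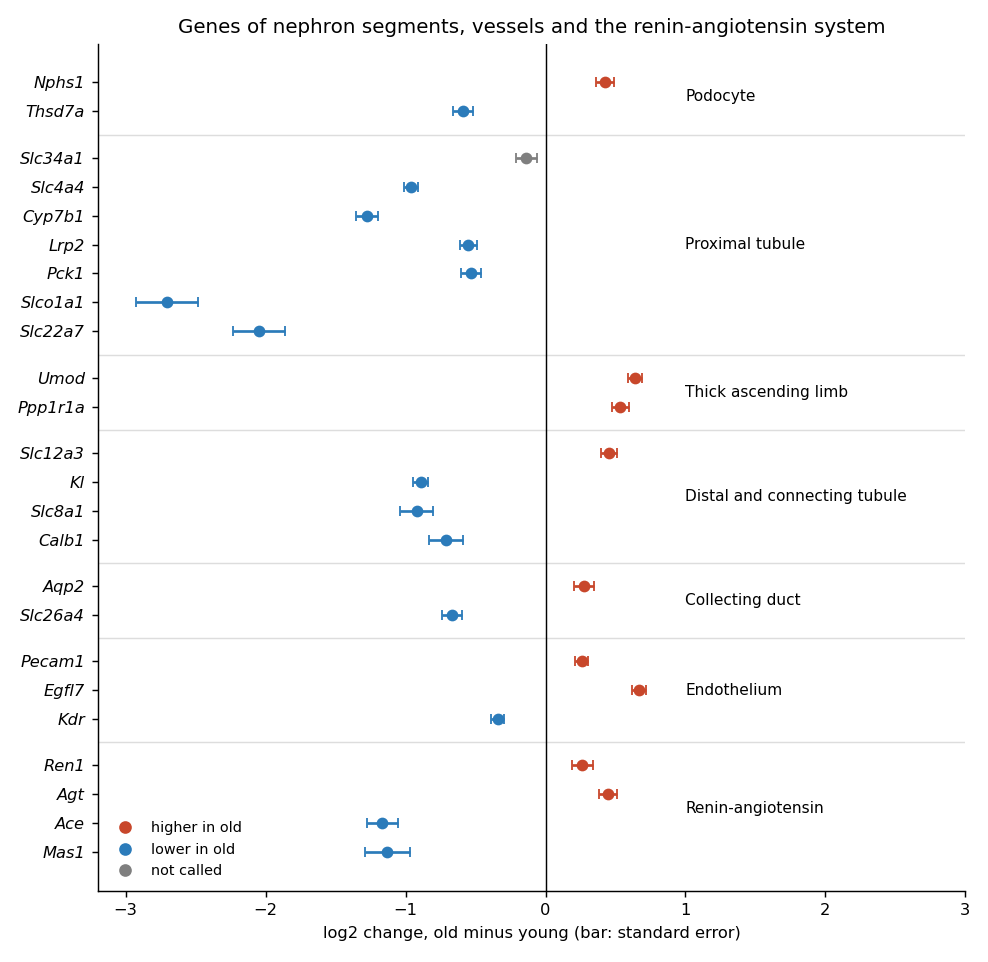
Log2 change from young to old kidney for genes of the nephron segments, endothelium and the renin-angiotensin system, with the standard error as a bar. Red points are higher, blue ones lower and the grey one (Slc34a1) was not called. Slco1a1 and Slc22a7 lie furthest to the left, at -2.70 and -2.05.

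Among the hormone systems of the kidney, the renin-angiotensin list had 3 of 9 tested members higher and 4 lower (median -0.10), beside 32.7% and 30% of all genes. Ren1, renin of the juxtaglomerular cells, had 36.3, 45.4 and 49.5 CPM and 41.6, 54.5 and 88.3 CPM, a change of 0.26 (SE 0.07) that turned to -0.05 with the GC and length trend removed. Agt, angiotensinogen, changed by 0.45 (SE 0.07), which was also lost there. Ace, which converts angiotensin I to II on the brush border and endothelium, dropped from 362, 486 and 543 CPM over 219, 354 and 391 CPM in aged to 142, 249 and 286 CPM in old kidney, with no overlap between young and old, a change of -1.17 (SE 0.11) (edgeR, adjusted p = 2.95e-07). Mas1, the receptor for angiotensin 1-7, fell by 1.13 (SE 0.16). In the list for phosphate, calcium and vitamin D, 6 of 13 were lower and 2 higher (median -0.14). Besides Kl, Pth1r, the parathyroid hormone receptor, fell by 0.30 (SE 0.06). Cyp27b1, which makes active vitamin D, rose from 3.37, 6.36 and 10.9 CPM to 5.48, 16.2 and 36.6 CPM with overlap, a change of 1.32 (SE 0.29).

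Androgen-responsive genes were lower in 7 of 8 tested and higher in 0, with a median log2 change of -1.01, and 4 of the 8 had no overlap. Gusb, beta-glucuronidase, went from 90.02, 105 and 133 CPM to 50.4, 58.6 and 69.6 CPM in aged and 46.7, 52.7 and 63.6 CPM in old kidney. Its change was -1.10 (SE 0.05) from young to old, with -0.91 from young to aged and -0.20 from aged to old. Odc1, which makes putrescine, fell by 0.99 (SE 0.08), and the medium-chain acyl-CoA synthetase Acsm3 by 1.69 (SE 0.16). Kap, the kidney androgen-regulated protein, did not pass: 1789.6, 1996 and 2278 CPM against 1218, 2248 and 3341 CPM, a change of -0.04 (SE 0.10) whose sign changed between settings. The genes named for their large falls included 2 steroid enzymes. Srd5a2, the reductase that makes dihydrotestosterone, went from 14.5, 33.4 and 36.7 CPM to 4.44, 6.07 and 12.5 CPM without overlap, a change of -2.25 (SE 0.14), and Akr1c18, a hydroxysteroid dehydrogenase, by -2.59 (SE 0.18). No testosterone level was analysed here.

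**Figure D5:**
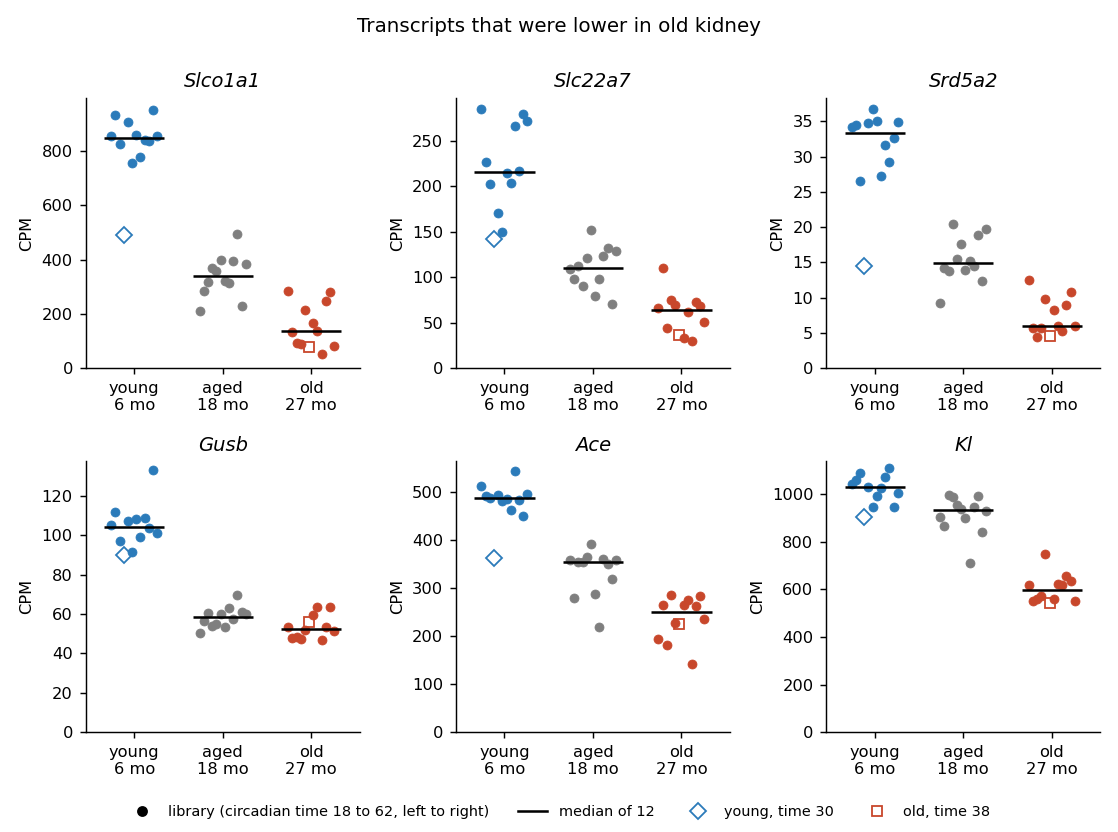
CPM on a linear axis in each kidney library for 6 genes that were lower in old kidney, 12 libraries a group in order of circadian time from left to right, with medians as bars. The young library at circadian time 30 (open diamond) is the lowest young value for Slco1a1, Slc22a7, Srd5a2, Gusb, Ace and Kl, and lies above the highest old value in each.

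Genes of lipid metabolism changed in both directions, with list medians close to that of all genes. Of 21 tested genes of sterol synthesis 10 were lower and 2 higher (median -0.05). Hmgcs1, an early synthase of the pathway, went from 676, 793 and 959.8 CPM to 362, 477 and 579.9 CPM with no overlap, a change of -0.85 (SE 0.05), and the later enzymes Idi1 and Cyp51 fell by 1.01 (SE 0.10) and 0.92 (SE 0.07). Of 21 tested genes of fatty acid oxidation, 10 were lower and 6 higher (median -0.07). Acadm, the medium-chain dehydrogenase, fell by 0.53 (SE 0.05), and Ppara, a regulator of the pathway, by 0.39 (SE 0.08). Against these, Cyp4a14, a fatty acid hydroxylase with close copies, rose from 7.88, 17.3 and 107 CPM to 41.3, 159.5 and 513 CPM, by 3.01 (SE 0.42), and the thiolase Acaa2 rose by 0.49 (SE 0.06).

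Stress lists held genes of both directions, beside 32.7% higher and 30% lower among all genes. Of 16 tested genes of protein folding and heat shock, 8 were lower and 2 higher (median -0.18). The chaperone Hsp90aa1 fell by 0.79 (SE 0.08) and Ddit3, or CHOP, rose by 0.65 (SE 0.08). Antioxidant genes were 6 of 17 higher and 6 lower (median -0.10), near the shares of all genes. Gclm, which supports glutathione synthesis, fell by 0.80 (SE 0.06) from 414, 463 and 508 CPM to 236, 284 and 371 CPM with no overlap, and the quinone reductase Nqo1 rose by 0.34 (SE 0.06). Genes of cell cycle arrest were 6 of 12 higher and 1 lower (Glb1, the lysosomal galactosidase, -0.45 (SE 0.06)), with a median of 0.33. Cdkn1a, or p21, rose from 3.76, 10.2 and 18.1 CPM to 13.6, 26.7 and 42.5 CPM at 12 of 12 times, a change of 1.37 (SE 0.17) (edgeR, adjusted p = 8.35e-06). Plaur, the urokinase receptor, rose by 0.87 (SE 0.12). Of 12 proliferation genes, 5 were higher and 0 lower (median 0.39), and 9 were without circadian time 30. Pcna, the replication clamp, rose by 0.31 (SE 0.05), while Mki67, a marker of cycling cells, had 4.16, 5.88 and 24.8 CPM and 5.897, 8.51 and 34.9 CPM, a change of 0.39 (SE 0.23) that did not pass (edgeR, adjusted p = 0.156). Without circadian time 30 it was 0.56 (SE 0.19) and passed.

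Mean levels of 19 clock genes, over the day and night, were higher in 4 and lower in 6 (median 0.02), beside 32.7% and 30% of all genes. Without the block of circadian time 0 were higher and 3 lower. Rora, a nuclear receptor that drives Arntl, went from 85.02, 95.8 and 109 CPM to 44.1, 56.7 and 72.7 CPM with no overlap, a change of -0.84 (SE 0.06). Clock fell by 0.69 (SE 0.08) and Hlf, an output factor, by 0.74 (SE 0.06). Arntl, which swings between 1.49 and 49.00 CPM within the young day, differed by 0.20 (SE 0.08) (edgeR, adjusted p = 0.0439), a call lost when any 1 of 7 circadian times was left out. That call was also lost with size factors, no filter, no block, a cosine of time, equal depth and each cycle alone. All 3 ages in 1 fit and removal of the GC and length trend ended it as well. Daily amplitude and phase are not part of this comparison.

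Transcripts of the mitochondrial genome and of ribosomes moved in opposite directions. Of 12 tested mitochondrially encoded respiratory chain genes, 9 were lower and 0 higher (median -0.88), with 0 called between young and aged. Mitochondrial transcripts made up 2.84 to 3.24% of counts in young, 2.76 to 3.25% in aged and 1.32 to 3.37% in old libraries, with the lowest share at circadian time 38. The median shares were 3.03%, 2.99% and 2.40%. mt-Nd5, a subunit of complex I and the 1 member whose groups did not overlap, had 5583, 5901 and 6390.2 CPM and 2155, 3673 and 5523 CPM, a change of -0.81 (SE 0.11), and the ribosomal RNA mt-Rnr2, which a poly(A) kit captures in part, one of -1.57 (SE 0.14). The 85 tested nuclear genes of the respiratory chain stayed near the background or below it, with 15 higher and 11 lower (median -0.01), or 6 higher and 56 lower with the GC and length trend removed. Cytosolic ribosomal proteins were higher in 73 of 79 tested and lower in 1 (median 0.43), and 37 had no overlap. With that trend removed they were 45 and 6 (median 0.19). Rpl12 had 81.9, 90.5 and 123 CPM and 143, 189.8 and 218 CPM, a change of 0.85 (SE 0.06), and Rpsa one of 0.76 (SE 0.05). Processed copies of ribosomal protein genes may share their reads. Among nuclear RNAs used to judge RNA quality, Kcnq1ot1, a long antisense RNA, fell by 1.81 (SE 0.07) with no overlap and a value of -0.07 from young to aged, and Malat1 fell by 0.40 (SE 0.07), a call lost with that trend removed. Their part in the other results was not tested.

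Immunoglobulin genes, described above, were among the largest rises. Other genes named for large changes came from no single list. Kynu, kynureninase of tryptophan breakdown, rose from 2.32, 3.66 and 9.87 CPM to 18.6, 23.3 and 53.9 CPM with no overlap, a change of 2.64 (SE 0.23). Rdh16f2, a retinol dehydrogenase, did likewise, from 19.8, 25.2 and 54.9 CPM over 45.3, 67.8 and 90.3 CPM in aged to 109, 173 and 296 CPM in old kidney, a change of 2.56 (SE 0.14). Slc7a12, an amino acid transporter, rose by 2.88 (SE 0.32), Acsbg1, an acyl-CoA synthetase, by 2.90 (SE 0.21) and Grem1, an antagonist of bone morphogenetic proteins, by 3.21 (SE 0.38). Among the rises that met the naming rule, 143 genes with provisional names and 13 variable segments were left out, and 50 provisional names among the falls.

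Ccl28 (chr13:119623819-119654359, plus strand) stood out among the falls. It lies near Nnt on chromosome 13, a gene described below, and whether their falls are linked was not tested. Ccl28 had 82.7, 122 and 163 CPM in young, 15.6, 19.9 and 29.8 CPM in aged and 10.5, 16.3 and 42.9 CPM in old kidney, so that neither older group reached the lowest young library. The change was -2.86 (SE 0.15) (edgeR, adjusted p = 2.58e-09), with -2.61 from young to aged and -0.25 from aged to old, the latter not called. Ttr, transthyretin, carrier of thyroid hormone and retinol, behaved alike, at 128, 154 and 230.2 CPM, 17.6, 47.4 and 72.1 CPM and 29.4, 46.3 and 77.1 CPM, a change of -1.86 (SE 0.13). Ctxn3 and Synpr, small membrane proteins, fell by 4.09 (SE 0.18) and 3.86 (SE 0.22). Each had no count in at least 1 old library, and their steps from young to aged were -3.28 and -3.18. Cntnap5a, Lipo2, Tc2n and Anks1b followed, with log2 changes of -2.45, -2.36, -2.21 and -1.88, and these 4 fell in both steps. The most abundant genes called at over 1.5-fold included the lipid flippase Atp11a (-0.84 (SE 0.09), from 2229.9, 2823 and 3087 CPM to 1083, 1714 and 2188 CPM) and the choline phosphotransferase Chpt1 (-0.84 (SE 0.08)), with Umod and mt-Nd5 described above at 0.64 and -0.81.

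Like Ccl28, Ttr, Gusb, Ctxn3 and Synpr, a few other genes changed mainly between 6 and 18 months. Whether these steps went with age or with another difference of the 6-month mice was not tested. Nnt (chr13:119335448-119408997, minus strand), the mitochondrial transhydrogenase, had 317, 332 and 352 CPM, 136, 162 and 167 CPM and 131, 148 and 158 CPM at the 3 ages, and Gm15446 rose by 6.36 (SE 0.21), with 6.36 from young to aged. The fall of Nnt was not particular to kidney. Its log2 change from young to old was negative in all 6 tissues, from -0.76 in heart to -1.70 in muscle. In the test between tissues described below, kidney differed from the mean of the others by -0.15 (SE 0.11), which did not pass.

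To compare these differences with those of other tissues, the change from young to old was tested against the mean change of the other 5 tissues. Of 21552 genes tested, 3175 had a higher value in kidney (14.7%) and 2781 a lower one (12.9%). A higher value can be a larger rise or a smaller fall, and a lower value the reverse. The log2 change of Ighm was 5.09 in kidney, 3.12 in lung, 2.43 in adrenal gland, 1.46 in hypothalamus, 0.62 in muscle and 0.17 in heart, a difference of 3.53 (SE 0.36) from their mean (edgeR, adjusted p = 8.75e-12). Igkc and C4b, which rose in kidney as well, differed from the mean of the other tissues by 0.01 (SE 0.55) and 0.01 (SE 0.31), which did not pass. Those standard errors leave room for differences in either direction. Lyz2 rose by 2.47 in kidney and 2.48 in hypothalamus but by at most 0.47 in the other 4 tissues, a difference of 1.66 (SE 0.25). Col6a1 rose in kidney by 0.97 and had negative values in all 5 other tissues, from -0.69 to -0.29. H2-Aa, Cxcl12 and Cdkn1a lay above the mean of the others by 0.77, 0.64 and 0.77, although lung matched kidney for Cxcl12 (0.82 in both) and muscle for Cdkn1a (1.35 against 1.34).

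On the lower side, Ccl28 differed most, by -4.61 (SE 0.21), since its log2 change was between 1.18 and 2.43 in the other tissues at mean levels of no more than 3.46 CPM. Gusb differed by -1.28 (SE 0.07), Ace by -1.20 (SE 0.14) and Kl by -1.01 (SE 0.19). Mean levels of Kl were no more than 1.59 CPM in adrenal gland, heart, lung and muscle. Ttr and C8a differed by -3.34 (SE 0.88) and -2.90 (SE 1.11). The log2 change of Ttr was -1.91 in kidney, 4.95 in muscle and 3.16 in adrenal gland, and that of C8a was -0.94, 6.09 and 4.24. The muscle values rest on very few counts. Mean levels there were 0.0089 CPM in young and 0.56 CPM in old for Ttr, and 0 and 0.41 CPM for C8a. By list, 8 of 20 B cell genes, 16 of 22 macrophage genes and 17 of 26 matrix genes had a higher value in kidney. A lower value was found for 0, 1 and 0, against 14.7% and 12.9% of all genes. Among the other immune lists, 4 of 24 T and natural killer cell genes, 4 of 12 immunoglobulin constant genes and 1 of all the variable segments tested changed more, and 0 of each less. Of the 21 proximal tubule genes 1 had a higher and 7 a lower value, and of the 13 mitochondrially encoded ones 0 and 11. The labels do not say whether tissues came from the same mice, which the fit does not model.

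Markers of neighbouring tissues were read beside these results, and their part in them was not tested. The adrenal list was at 1.21 to 3.34 CPM in sum in young and 1.49 to 3.43 CPM in old kidney, with 1 of 8 members tested and 0 called. The skeletal muscle list summed to 13.0 to 18.9 CPM and 8.85 to 49.9 CPM. Of 8 white adipose genes 0 were higher and 1 lower, Lpl, with a change of -1.04 (SE 0.10). Without circadian times 30 and 38, 4 of 8 were higher, and without 18, 22 and 38, 4 of 7, with 1 lower in both. Adipoq, the adipocyte hormone, scattered from 0.0465 to 24.9 CPM in young and from 0.728 to 41.9 CPM in old kidney. Of 6 tested red blood cell genes 2 were higher and 0 lower, with a summed range of 133 to 263 CPM in young and 152 to 604 CPM in old kidney, and Hba-a1 at 0.79 (SE 0.27) was lost under several settings. Liver genes, a list added after the data were seen, were higher in 2 of 7 tested and lower in 0. Alb, the plasma protein of liver, was at 895 CPM in the young library at circadian time 38 and at 443 and 464 CPM in the old ones at 18 and 22, against a young median of 11.3 and an old median of 19.02, and its change of 1.07 (SE 0.83) did not pass (edgeR, adjusted p = 0.282).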

How the data were processed

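RNA was measured by poly(A) sequencing in 216 mouse libraries, each of 2 pooled samples. The authors deposited raw read counts per gene name. The submitters' processing notes name HISAT2, HTSeq, GRCm38 and mm10. Versions, strand and counting settings: not given in the sources used here. CPM was computed from the counts. The table has 55376 gene names, and no 2 kidney libraries matched within sampling noise (630 pairs, lowest chi-square per degree of freedom 3.38).

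Genes were kept by edgeR's filterByExpr with a minimum count of 10, scaled by TMM and tested by edgeR 4.0.16 (quasi-likelihood, R 4.3.3) with circadian time as a block, and p-values were adjusted over all genes by the Benjamini-Hochberg method. A second edgeR test (glmTreat) asked for a change over 1.5-fold. A fit over 3 ages gave the steps through 18 months, and one over 6 tissues the test between tissues. The scripts were tested on simulated counts. Alternatives used DESeq2 1.42.0, its size factors, no filter, no block, a cosine of time, thinned libraries, each cycle alone and omitted libraries. Removal of the trend over GC content and transcript length and the omission of several libraries together were added after the data were seen. Tables were handled with pandas 2.3.3 and figures drawn with matplotlib 3.10.9.

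Circadian time was kept as a block because it defines the comparison. Between young and old libraries of the same time, deviations from the group means correlated at -0.03 to 0.36, and 4 of 12 libraries matched their own time best.

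The comparison and the gene lists were chosen with earlier results of these data known. Genes were named by rule: Ighm, C4b and Igkc, the 12 largest rises and falls with 1 sign at all 12 times and at least 5 CPM in the higher group, the first gene and up to 4 called members with the smallest p in each list, the 5 most abundant genes called at over 1.5-fold, and 3 of each sign from the test between tissues. Outside this rule, Acsm3, Aqp1, C3, Cd55, Cldn10, Cyp27b1, Egf, Erap1, Igha, Jchain, Krt20, Lcn2, Lyz2, Miox, Rsad2, Slc12a1, Slc22a8, Tapbp and Zbp1 were chosen after their values were seen. Some genes that the rule gives are not reported here.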

Additional observations from a re-analysis of the deposited data

Results flagged for a closer look

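Between young and old mice, the change in kidney differed from the mean change of the other 5 tissues for 5956 genes, by edgeR's test of the difference itself. Of the 17 genes whose tissue values were compared in the text, 14 passed.

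Of the immunoglobulin genes, 4 of 12 constant genes and 1 of all the variable segments tested had a higher value in kidney. The difference on the log2 scale was 3.53 for Ighm, 2.58 (SE 0.87) for the variable segment Igkv3-2 and 2.51 (SE 0.89) for Ighg1. The changes of Igkv3-2 in adrenal gland (5.53) and lung (5.43) were as large as in kidney (5.27), and its value in heart was -0.55. Ighg1 had 5.82 in adrenal gland, 4.36 in lung, 4.87 in kidney and -0.88 in heart. Mean levels in heart were no more than 0.064 CPM for Igkv3-2 and 0.33 CPM for Ighg1. The myeloid lysozyme Lyz2 differed by 1.66, the stromal chemokine Cxcl12 by 0.64, the MHC class II gene H2-Aa by 0.77, the collagen Col6a1 by 1.43 and the cell cycle inhibitor Cdkn1a by 0.77.

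Transcripts with a lower value in kidney included the chemokine Ccl28 at -4.61, transthyretin Ttr at -3.34 and the complement component C8a at -2.90. In muscle, mean levels were no more than 0.56 CPM for Ttr and 0.41 CPM for C8a. Klotho, Kl, differed by -1.01, the converting enzyme Ace by -1.20, and beta-glucuronidase, Gusb, by -1.28. Against the median in place of the mean of the other tissues, which was not tested, the value was 3.63 for Ighm, -4.50 for Ccl28, -2.31 for Ttr and -1.53 for C8a.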

How the results depend on the processing

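The number of genes called between young and old kidney was 10362 and ran from 7588 (circadian times 42 to 62) to 10969 (no filter on low counts), with 10105 by DESeq2 and 9875 to 10373 when 1 circadian time was left out. Without the replicate block of circadian time it was 10057, the steps through 18 months gave 3259 and 8533 genes, and the counts for injury, matrix and complement genes were 12, 12 and 15. Genes called at over 1.5-fold were 1742 in all. They were 1064 (675 higher) at equal depth and 979 (515 higher) with circadian times 18 to 38, both of which use fewer reads or libraries, those lower were 343 with circadian times 42 to 62, and leaving out 1 circadian time gave 1601 to 1918. Of 143 genes taken through every setting, most of them named here, 111 kept their direction and their side of the threshold in all settings run. With circadian times 18 to 38 alone 16 fell out, with the GC and length trend removed 10, without the block 8. Signs reversed with the GC and length trend removed for Erap1 (0.085), Ren1 (-0.0496) and Slc22a8 (-0.00078), and the cause was not tested. Kap, not called in any setting, was 0.014 without the block, 0.010 with a cosine of time, 0.024 with circadian times 18 to 38, 0.016 without 30 and 38, and between -0.0875 and 0.0055 when 1 time was left out. Old totals down to 5.20 M limit what can be said of transcripts with few counts.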
